A study of Sus scrofa with 6 samples.

Results

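PAX3 and PAX7 were followed region by region in chromatin accessibility data from pig somites and myotomes. A member was any peak of the 6 deposited peak lists that overlapped the body of either gene or the 50 kb on each side of it in the Sscrofa11.1 assembly. Overlapping peaks of different libraries (1 bp or more in common) counted as 1 region. This gave 382 of 1047483 peaks and 89 of 294825 regions, 34 at PAX3 and 55 at PAX7. PAX3 lies on chromosome 15 from 124093803 to 124193041, minus strand, with 1 annotated start, and PAX7 lies on chromosome 6 from 77160827 to 77268626, plus strand, with 2 annotated starts at 77160827 and 77161427. Regions are numbered along each locus in the direction of transcription. A promoter region overlapped the stretch from 2 kb before to 200 bp after a start, a body region overlapped the rest of the gene, and a flanking region lay outside it. PAX3 had 1 promoter, 18 body and 15 flanking regions, and PAX7 had 1, 35 and 19.

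The assay, single-cell ATAC-seq, reads where a transposase can cut the DNA of a nucleus, and a barcode ties each cut to its droplet. The tissue was somite on day 18 (E18) and day 21 (E21) of gestation and myotome, the muscle-forming layer of the somite, on day 28 (E28). At each stage there was a library of Tibetan pigs (ZZ) and a library of DurocxTibetan pigs (DZ), and the study's methods state that each sample mixed 5 embryos of the same sow. A stage was therefore represented by 2 libraries of different breeds and a breed by 3 libraries of different stages, p-values measure the spread between these pools, and tissue and stage cannot be told apart at E28.

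PAX3 and PAX7 are closely related transcription factors with a paired domain and a homeodomain. In the somite both are made in the dermomyotome, the epithelium from which muscle progenitors arise, where PAX3 is the earlier of the pair and is needed by the progenitors that migrate to the limb, while PAX7 later marks the resident muscle progenitors that become satellite cells. Both genes are also used in the dorsal neural tube and in the neural crest, so a somite preparation that carries neural tissue holds several cell types in which either locus may be open.

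The sequences of 6 regions are shown because the stage results turn on them: PAX3-11, PAX3-16, PAX3-29 and PAX7-46 lost counts towards E28, and PAX7-30 and PAX7-35 gained them. Each is the reference sequence of Sscrofa11.1 on the strand of its gene, 200 bases long, centred on the stretch that peaks of most libraries shared (5 libraries for PAX7-46, 6 for the others). The windows are chr15:124164165-124164364 (PAX3-11, intron 4), chr15:124134887-124135086 (PAX3-16, intron 4), chr15:124076491-124076690 (PAX3-29, downstream of the gene), chr6:77219707-77219906 (PAX7-30, intron 5), chr6:77232885-77233084 (PAX7-35, intron 7) and chr6:77257864-77258063 (PAX7-46, intron 8). Capitals mark matches, on either strand, to 7 short motifs: the E-box CANNTG of basic helix-loop-helix factors, its form CAGCTG, which the first motif includes, TAATTA (homeodomain), CATTCC (TEAD), CTTTGA (TCF/LEF), ACAATG (SOX) and TGACAG (MEIS).
PAX3-11: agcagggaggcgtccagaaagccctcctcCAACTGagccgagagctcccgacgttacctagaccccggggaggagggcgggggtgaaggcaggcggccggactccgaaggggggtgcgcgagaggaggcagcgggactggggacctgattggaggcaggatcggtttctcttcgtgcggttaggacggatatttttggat
PAX3-16: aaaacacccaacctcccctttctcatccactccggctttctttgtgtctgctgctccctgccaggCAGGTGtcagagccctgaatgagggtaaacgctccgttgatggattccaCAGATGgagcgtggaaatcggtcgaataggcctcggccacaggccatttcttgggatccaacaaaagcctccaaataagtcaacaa
PAX3-29: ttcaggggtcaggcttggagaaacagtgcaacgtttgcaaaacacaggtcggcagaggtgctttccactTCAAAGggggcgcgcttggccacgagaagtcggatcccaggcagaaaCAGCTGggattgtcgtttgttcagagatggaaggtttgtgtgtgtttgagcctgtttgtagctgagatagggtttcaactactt
PAX7-30: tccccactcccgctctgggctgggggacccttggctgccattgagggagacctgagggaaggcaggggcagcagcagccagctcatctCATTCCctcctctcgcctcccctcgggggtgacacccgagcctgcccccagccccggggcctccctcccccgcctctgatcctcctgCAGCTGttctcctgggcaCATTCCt
PAX7-35: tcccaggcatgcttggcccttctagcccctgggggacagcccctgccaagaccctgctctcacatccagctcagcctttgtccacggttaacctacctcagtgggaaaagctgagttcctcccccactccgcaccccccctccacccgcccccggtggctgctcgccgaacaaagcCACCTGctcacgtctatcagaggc
PAX7-46: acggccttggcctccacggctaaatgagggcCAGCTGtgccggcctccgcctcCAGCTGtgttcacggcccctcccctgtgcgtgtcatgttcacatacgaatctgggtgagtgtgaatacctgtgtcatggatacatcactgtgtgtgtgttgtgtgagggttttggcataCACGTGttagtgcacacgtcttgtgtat

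The windows of both PAX3 regions with the largest falls held E-boxes and none of the other motifs. The window of PAX7-46 held 3 E-boxes of which 2 read CAGCTG, PAX7-30 held 1 CAGCTG and 2 TEAD matches, and PAX7-35 held 1 E-box. PAX3-29 held CAGCTG and a TCF/LEF match on the opposite strand. Over the 36 member regions with a peak in all libraries, 29 windows held an E-box, 13 held CAGCTG, 2 TAATTA, 3 CATTCC, 5 CTTTGA, 1 ACAATG and 6 TGACAG. Among the 78532 windows of the same length in all regions with a peak in every library, the shares were 66.6% for CANNTG, 20.2% for CAGCTG, 3.07% for TAATTA, 14.6% for CATTCC, 11.7% for CTTTGA, 7.45% for ACAATG and 14.3% for TGACAG. A match describes letters in a window, the rest of each region was not searched, and no binding was measured.

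Only barcodes holding 2000 to 30000 counts entered, between 9286 and 11243 in a library, with 89816504 to 133037579 counts per library. Between 113 and 157 kept barcodes occurred in both libraries of any pair. Of the non-zero entries of a library's matrix, 90.1% to 92.4% were even numbers, so counts mostly came in pairs. The intervals given below for counting error treat counts as independent and are therefore too narrow. The files hold counts only inside the peaks called in that library, and peaks covered less of the genome at E28 (102 and 108 Mb) than at E18 (191 and 168 Mb). The length covered is therefore given for the regions and sums described at most length, and the stage fits were repeated with covered length as an offset, which gives a change per covered base. Values are CPM, the counts of a region scaled to equal library totals, ZZ before DZ, and fold changes are edgeR quasi-likelihood estimates with a Benjamini-Hochberg adjustment over all regions tested. In sums over all barcodes, fewer cells of a type and less accessibility per cell cannot be told apart.

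Peaks at both loci became fewer with stage, as they did over all 294825 regions, of which 72.3% and 65.1% had a peak at E18 and 41.9% and 44.2% at E28. PAX3 regions with a peak numbered 28 and 25 at E18, 22 and 22 at E21 and, by E28, 14 and 15, and PAX7 regions 44 and 39, 41 and 36, and 28 and 29. At PAX3, 12 regions had a peak in both E18 libraries and in neither E28 library, and 2 (PAX3-20 and PAX3-21) showed the reverse, which is 35.3% and 5.88% of its regions. At PAX7 the counts were 13 and 3 (PAX7-9, PAX7-22 and PAX7-29), or 23.6% and 5.45%, and over all regions the shares were 26.8% and 6.72%. Among the lost regions PAX7-21, in the gene body, stood highest at E18, with 6.55 and 7.14 CPM over 2174 and 2131 bp, and had no peak in the other 4 libraries. PAX7-22 had 2.66 and 2.39 CPM at E28, 0.300 CPM in E21 ZZ and no peak elsewhere. No region had a peak in all libraries of a breed and in none of the other. A peak in a single library was seen for 5 PAX3 and 12 PAX7 regions (14.7% and 21.8%, beside 22.9% of all regions), for example PAX7-55 in E28 DZ with 3.16 CPM. Regions with a peak in all 6 libraries, 12 at PAX3 (1 promoter, 7 body, 4 flanking) and 24 at PAX7 (1, 14 and 9), held 91.1% to 96.9% of the PAX3 counts and 88.6% to 94.5% of the PAX7 counts of a library, and the tests below concern these 36 regions. All 36 passed the filter on low counts. The plot of CPM by distance from the start shows all 89.

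**Figure D1:**
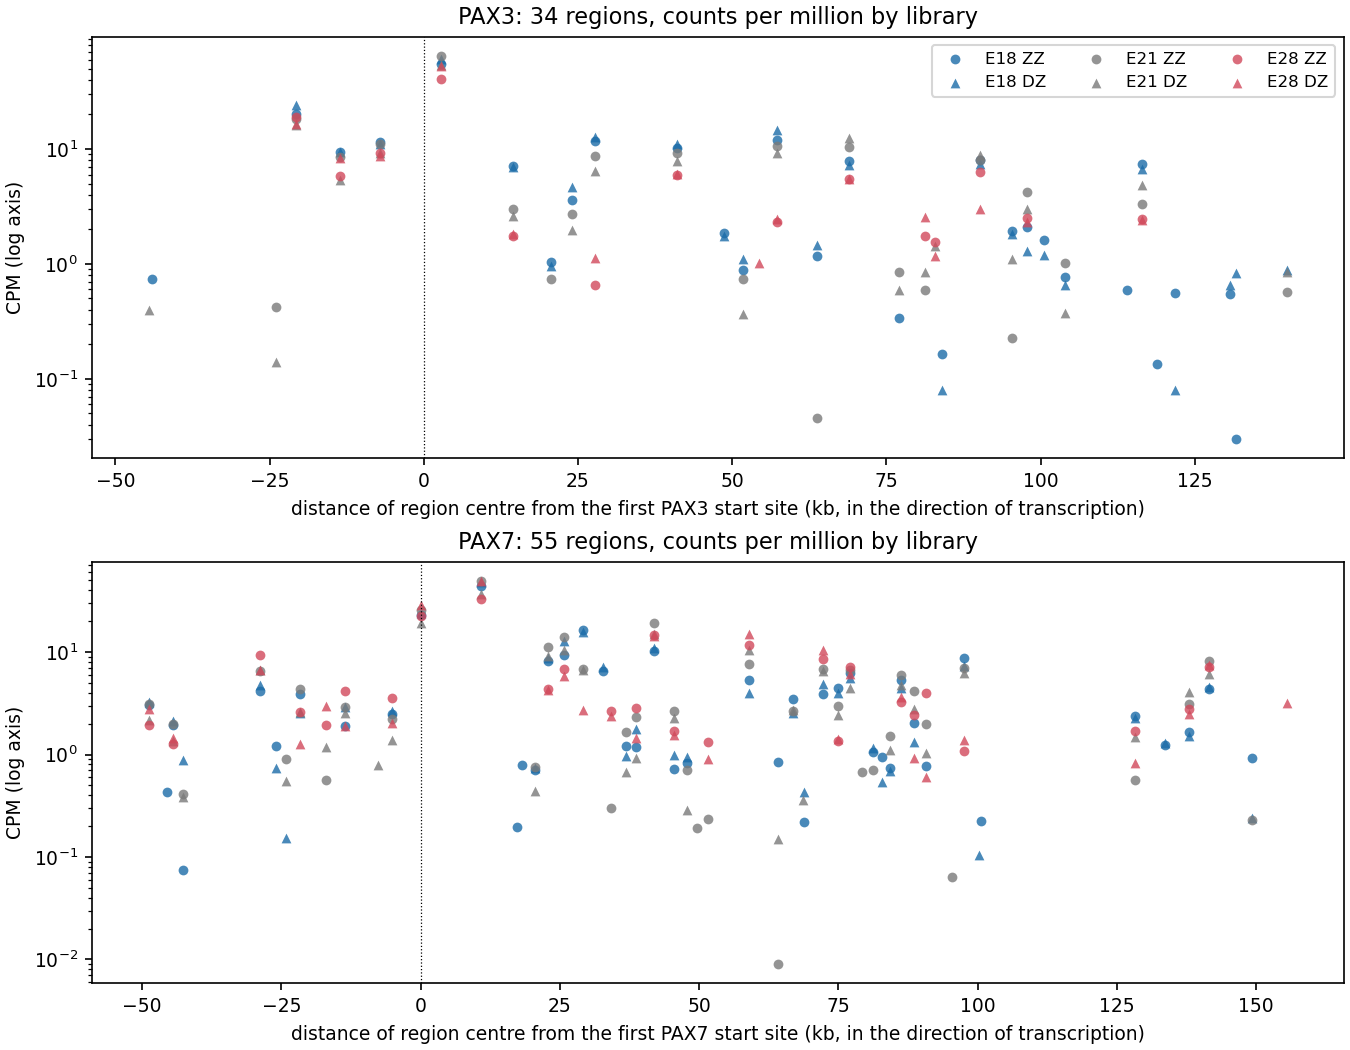
Accessibility of each PAX3 (top) and PAX7 (bottom) region in CPM (log axis) against the distance of the region's centre from the first annotated start in kb, 1 point per library with a count. Circles are ZZ and triangles DZ, blue E18, grey E21 and red E28. The regions at the starts stand highest with the wide PAX7 region at 10.8 kb, and red points are missing or low at several intronic regions between 14.5 and 57.2 kb of the PAX3 start.

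The promoter regions of both genes were broad and open in all libraries. PAX3-7 spanned 14527 bp (chromosome 15, 124183025 to 124197551) and took in exons 1 to 4. It had 55.2 and 61.3 CPM at E18, 64.7 and 53.6 at E21 and, by E28, 41.1 and 52.6. The E28 values lay below those of E18, but the fitted fall of 0.36 on the log2 scale (SE 0.16) did not pass the test (adjusted p 0.118). It was 1 peak of 14527 and 13736 bp at E18 and was called as 4 and 3 separate peaks covering 6846 and 9395 bp at E28, and per covered base the promoter was higher at E28 by 0.45 (adjusted p 0.00164), where the median over all regions was 0.43. The peak over the start itself had 16.8 and 23.1 CPM over 1914 and 3429 bp at E28.

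PAX7-13 (chromosome 6, 77157162 to 77164556, exons 1 and 2) held both PAX7 starts. It had 22.9 and 23.8 CPM at E18, 25.7 and 19.3 at E21 and, by E28, 22.5 and 28.9, so that the stages overlapped. Its fitted change from E18 to E28 was 0.10 ± 0.20 (adjusted p 0.730), while covered length went from 7349 and 7317 bp to 3141 and 4691 bp and the change per covered base was 1.02 (adjusted p 1.1e-05). The region with the most PAX7 counts was PAX7-14, 10.8 kb into the gene over exon 4 and part of intron 4, with 44.3, 48.2, 49.4, 36.9, 32.6 and 49.1 CPM in the order of the libraries. It was the widest PAX7 region at 11930 bp, was called as 5 peaks in E28 ZZ and 1 in each other library, and its change of -0.23 ± 0.23 did not pass (adjusted p 0.464).

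From E18 to E28, 5 of 12 PAX3 regions passed the test at an adjusted p under 0.05, all of them lower at E28, against 37.1% of the 78533 regions tested in all (19% higher at E28 and 18.1% lower). At PAX7, 6 of 24 passed, 2 higher and 4 lower. Both counts were lower without E18 ZZ and without E18 DZ. The share of all regions passing was not computed for fits that leave out a library. Counts of members from such fits, here and below, are therefore not read as results about the members. Of the regions described below, PAX3-29, PAX7-18, PAX7-35 and PAX7-36 lost their calls without either E18 library and PAX7-30 lost its call without E18 DZ. With all merged regions tested, PAX3-12, PAX3-29, PAX7-19, PAX7-30 and PAX7-36 lost theirs. The median log2 fold change was -0.67 over the PAX3 regions and -0.08 over the PAX7 regions, beside -0.02 over all regions.

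Of the falling PAX3 regions, 4 lay in intron 4 and 1 downstream of the gene. PAX3-11, 27.8 kb from the start, had 11.6 and 12.6 CPM at E18, 8.62 and 6.42 at E21 and, by E28, 0.657 and 1.12. Both E28 libraries lay far below the other 4, a fall of 3.82 ± 0.37 (adjusted p 0.00291). PAX3-16, at 57.2 kb, had 12.0 and 14.7 CPM at E18, 10.7 and 9.19 at E21 and, by E28, 2.33 and 2.47, a fall of 2.51 ± 0.24 (adjusted p 0.00284). In these 2 regions the peaks shrank with the counts, from 3263 and 2874 bp to 184 and 369 bp and from 3212 and 3235 bp to 590 and 787 bp. Per covered base the changes were -0.33 (adjusted p 0.257) and -0.27 (adjusted p 0.299), and neither passed, where the median over all regions was 0.43.

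PAX3-8 differed in this respect. It lies in intron 4, 14.5 kb from the start, and had 7.10 and 6.93 CPM at E18, 3.01 and 2.63 at E21 and, by E28, 1.75 and 1.80, with no overlap between stages. The fall was 2.02 ± 0.28 (adjusted p 0.00544), it remained at 1.30 per covered base (adjusted p 0.0001), and covered length went from 792 and 738 bp to 440 and 483 bp. It was the only member that passed between E21 and E18 (a fall of 1.38, adjusted p 0.0449), where 6.59% of all regions passed. That call was lost without either E18 or either E21 library, and 5 members passed without E28 ZZ or without E28 DZ. PAX3-29, 116.4 kb from the start and downstream of the gene, had 7.35 and 6.76 CPM at E18, 3.30 and 4.90 at E21 and, by E28, 2.45 and 2.41. It fell by 1.59 ± 0.31 (adjusted p 0.0128) and by 0.93 per covered base (adjusted p 0.00285). PAX3-12, at 41.1 kb, fell from 10.2 and 11.0 CPM to 5.90 and 6.11 (-0.86, adjusted p 0.0269). Per covered base its change was 0.31, below the median of 0.43 over all regions. Of the 6 fits that left out a library, the call of PAX3-12 held in 1, the fit without E28 DZ.

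The flanking regions upstream of PAX3 changed less. PAX3-4, which also overlaps the promoter of the neighbouring gene LOC100626715, had 20.2 and 24.2 CPM at E18 and 18.8 and 16.5 at E28, PAX3-6 had 11.56 and 11.11 against 9.31 and 8.75, and PAX3-5 had 9.42 and 9.40 against 5.81 and 8.37. The E18 and E28 values of PAX3-4 and PAX3-6 did not overlap and those of PAX3-5 lay apart too, but none of the 3 passed, with log2 fold changes of -0.38 (PAX3-4), -0.37 (PAX3-6) and -0.44 (PAX3-5). Leaving out 1 library, PAX3-5 ran from -0.95 to -0.02 and PAX3-4 from -0.54 to -0.2. Per covered base PAX3-6 was at 0.22, below the median of 0.43 over all regions. PAX3-18, in intron 5, stood highest at E21 with 10.3 and 12.5 CPM between 7.82 and 7.26 at E18 and 5.47 and 5.53 at E28, and it did not pass in any comparison.

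At PAX7 the 2 rising regions lay in introns 5 and 7. PAX7-30, 58.9 kb from the start, had 5.32 and 4.01 CPM at E18, 7.59 and 10.4 at E21 and, by E28, 11.6 and 15.1. The stages did not overlap, the rise was 1.45 ± 0.31 (adjusted p 0.0159), and it was 1.05 per covered base (adjusted p 0.00036) while its peaks widened from 1129 and 849 bp to 1258 and 1372 bp. PAX7-35, at 72.2 kb, rose from 3.89 and 4.91 CPM through 6.78 and 6.47 to 8.57 and 10.5, by 1.08 ± 0.24 (adjusted p 0.0181) and by 1.19 per covered base (adjusted p 0.000139). Its peaks kept their length, from 1027 and 1009 bp to 928 and 956 bp.

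The falling PAX7 regions were PAX7-46 in intron 8, PAX7-36 in intron 7, and PAX7-18 and PAX7-19 in intron 4. PAX7-46, 97.6 kb from the start, had 8.73 and 7.38 CPM at E18, 6.91 and 6.25 at E21 and, by E28, 1.08 and 1.39, a fall of 2.75 ± 0.30 (adjusted p 0.00349), while its peaks went from 1810 and 1776 bp to 343 and 589 bp. Per covered base it fell by 0.76 (adjusted p 0.00894). PAX7-36 fell from 4.46 and 3.96 CPM to 1.35 and 1.43 (-1.64, adjusted p 0.0128), PAX7-18 from 8.13 and 8.68 to 4.34 and 4.25 (-1.01, adjusted p 0.0186), and PAX7-19 from 9.31 and 12.9 to 6.89 and 5.89 (-0.85, adjusted p 0.0473). Per covered base PAX7-36 fell by 0.55 (adjusted p 0.0529) and PAX7-19 by 0.67 (adjusted p 0.0152), and PAX7-18 was at 0.36, below the median of 0.43 over all regions. The call of PAX7-19 held in 1 of the 6 fits that left out a library (without E28 ZZ), with changes from -1.17 to -0.48, and it was lost with RLE factors and with the other barcode limits.

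PAX7-20, at 29.1 kb in intron 4, had 16.5 and 15.7 CPM at E18, 6.86 and 6.74 at E21, and 2.73 in E28 DZ, while in E28 ZZ its peak was 1 bp long and held no count. The estimate of -4.17 had an SE of 1.49 and did not pass (adjusted p 0.0738). Without E28 ZZ the fall of PAX7-20 was 2.55 and passed.

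The other high regions of PAX7 did not pass in their counts. PAX7-25, in intron 4, had 10.3 and 10.9 CPM at E18 and 14.5 and 14.2 at E28, with 19.3 and 14.9 at E21 (E28 against E18 0.40, adjusted p 0.135). The highest flanking regions were PAX7-5, upstream, with 4.19 and 4.71 CPM at E18 and 9.36 and 6.74 at E28 (0.80, adjusted p 0.0555), PAX7-53, downstream, with 4.33 and 4.56 against 7.17 and 7.39 (0.67, adjusted p 0.0820), and PAX7-8, upstream, with a change of -0.82 (adjusted p 0.0820). Per covered base PAX7-25 (0.95, adjusted p 0.000238), PAX7-5 (0.68, adjusted p 0.0227) and PAX7-53 (0.95, adjusted p 0.00124) passed as higher at E28. The counts of PAX7-5 also passed with DESeq2, without the breed term, with barcodes counted once and without E28 DZ.

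**Figure D2:**
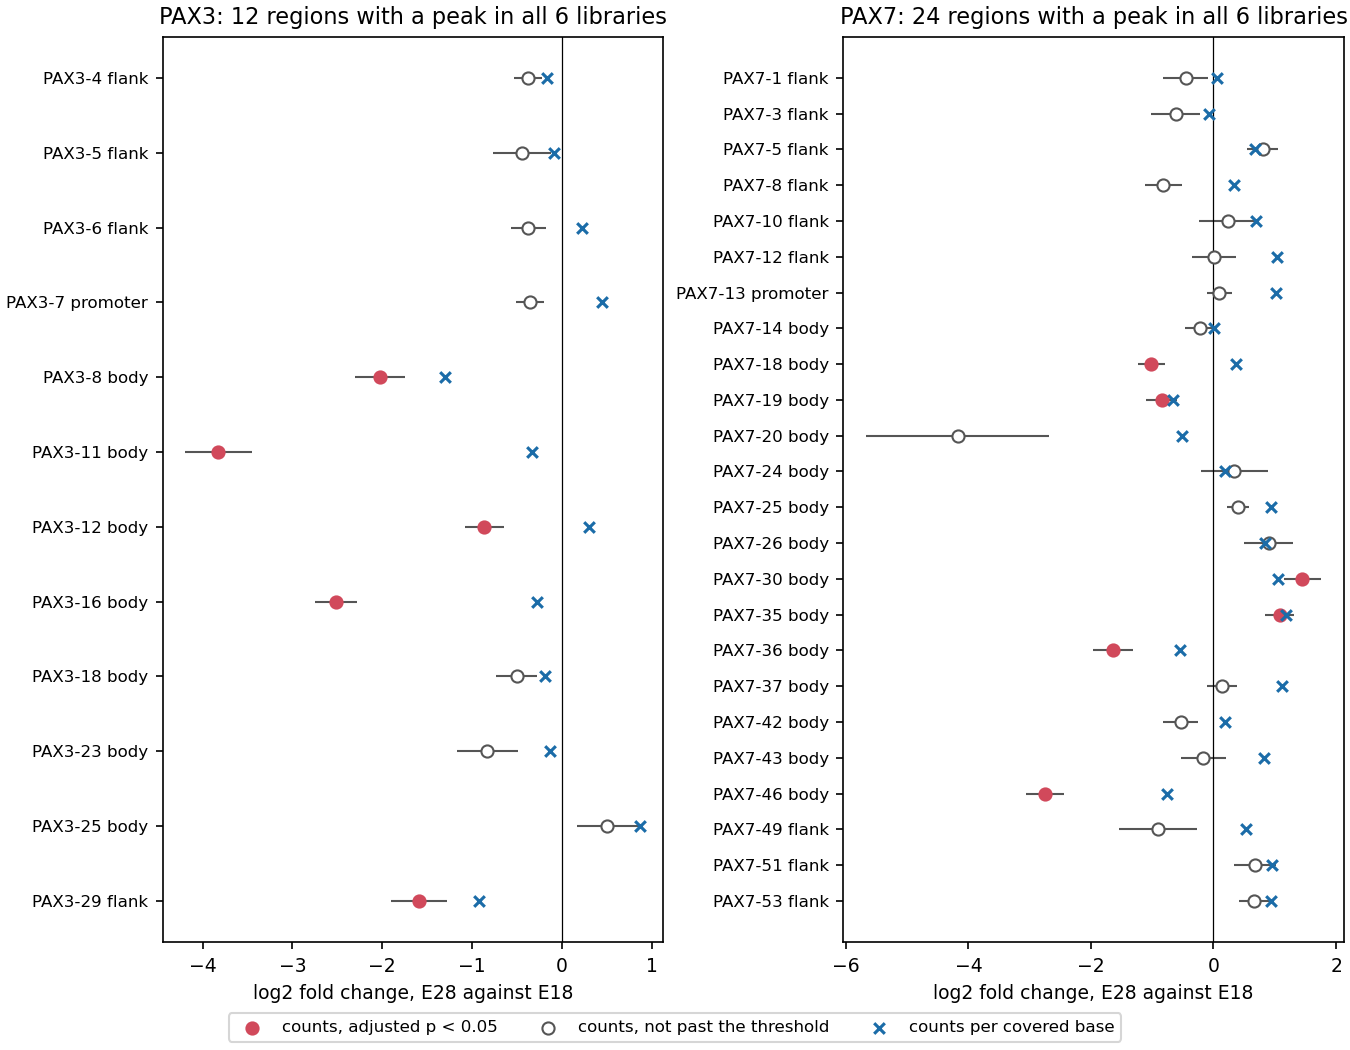
Log2 fold change of E28 against E18 for the 12 PAX3 and 24 PAX7 regions with a peak in all 6 libraries, from counts (circles, bars are standard errors, filled red where the adjusted p was under 0.05) and per covered base (blue crosses). The crosses lie to the right of the circles for PAX3-11, PAX3-16 and PAX7-46 by more than 1.5, and close to them for PAX7-35.

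Per covered base, 2 PAX3 regions passed as lower (PAX3-8 and PAX3-29) and 2 as higher at E28, and 2 PAX7 regions passed as lower (PAX7-19 and PAX7-46) and 12 as higher, in a fit where 6.39% of all regions passed as lower and 45.8% as higher. The offset moved the median over all regions to 0.43, and the calls test against 0 with that shift included, so that PAX3-7, called higher at 0.45, lay about at the median of all regions. The PAX3 median of -0.15 lay below it and the PAX7 median of 0.60 above it.

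Later change was tested between E28 and E21, where 7.13% of all regions passed. Of the 36 members 4 passed, all lower at E28: PAX3-11 (-3.07, adjusted p 0.0247), PAX3-16 (-2.03, adjusted p 0.0247), PAX7-46 (-2.38, adjusted p 0.0251) and PAX7-18 (-1.22, adjusted p 0.0386). For PAX3-11, PAX3-16 and PAX7-46 the change from E18 to E21 was smaller, at -0.75, -0.48 and -0.36, and did not pass. Per covered base PAX3-11 was at 0.27 and PAX7-18 at 0.34 between E28 and E21, and neither passed. Under 9 other settings PAX3-16 and PAX7-46 each lost the call in 2, with changes up to -0.17 and -0.48. The median of all regions with the offset was not computed for this comparison. Without E21 ZZ or without E21 DZ 0 members passed between E28 and E21, and without E28 ZZ 7 did.

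Whether the regions of a locus changed by unequal amounts was tested by setting each region against the rest of its gene, where 26% of all regions assigned to genes passed. At PAX3, PAX3-11 (-3.12 on the log2 scale relative to the rest), PAX3-16 (-1.81) and PAX3-8 (-1.32) fell further than the other regions. At PAX7, PAX7-20 (-4.02) and PAX7-46 (-2.59) lay below the rest and PAX7-30 (1.60, adjusted p 0.0112) above it. The test used counts. Mean covered length at E28 relative to E18 was 0.09 (PAX3-11), 0.21 (PAX3-16), 0.12 (PAX7-20), 0.26 (PAX7-46), 0.60 (PAX3-8) and 1.33 (PAX7-30). The E28 ZZ peak of PAX7-20 held no count, and its own stage test did not pass. Unequal accessibility and unequal peak calling cannot be told apart here. Without E18 ZZ or without E18 DZ 1 PAX7 region passed, and 7 and 6 did without E28 ZZ and E28 DZ.

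Counts were also summed by class over the regions shared by all libraries and fitted over all genes with that class. The PAX3 body sum was 58.8 and 61.2 CPM at E18, 54.2 and 50.4 at E21 and, by E28, 24.9 and 22.3. It fell by 1.34 ± 0.11 from E18 to E28 (adjusted p 0.00118), where 43% of all body sums passed, and by 1.13 from E21 to E28 (adjusted p 0.0131), where 12.7% passed. It did not pass from E18 to E21 (-0.21, adjusted p 0.233), where 12.4% did. Covered length went from 12993 and 11867 bp to 4422 and 4845 bp, and per covered base the change was 0.08.

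The PAX3 flank sum was lower already at E21, with 48.5 and 51.5 CPM at E18, 41.4 and 35.7 at E21 and, by E28, 36.39 and 36.03. It fell by 0.43 from E18 to E21 (adjusted p 0.0250), where 16.3% of all flank sums passed, and by 0.57 ± 0.11 from E18 to E28 (adjusted p 0.00186), where 48.6% passed, with no call from E21 to E28 (-0.13, 15.9% of all). Per covered base the change of the flank sum from E18 to E28 was -0.16 and did not pass. The PAX3 promoter sum, with the counts of PAX3-7, fell by 0.48 ± 0.14 in this fit (adjusted p 0.0147), where 48% of promoter sums passed, 8.16% passed from E18 to E21 and 10.4% from E21 to E28. The same counts did not pass in the fit over regions, the sum lost its call without E18 DZ (-0.44) or without E28 ZZ (-0.24), and per covered base it was at 0.33.

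None of the PAX7 sums passed. The promoter sum changed by -0.02 ± 0.17 from E18 to E28. The body sum was 126 and 131 CPM at E18, 147 and 119 at E21 and, by E28, 98.4 and 118 (-0.24 ± 0.14, adjusted p 0.207), and the flank sum was 25.8 and 26.5, 32.8 and 28.5, and 34.6 and 26.9 (0.12 ± 0.14, adjusted p 0.492). Without E28 DZ the promoter sum (-0.35) and the body sum (-0.45) passed as lower. Per covered base all 3 lay above 0, at 0.90, 0.34 and 0.65. The median over all sums was not computed with the offset, which moved that over all regions to 0.43.

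**Figure D3:**
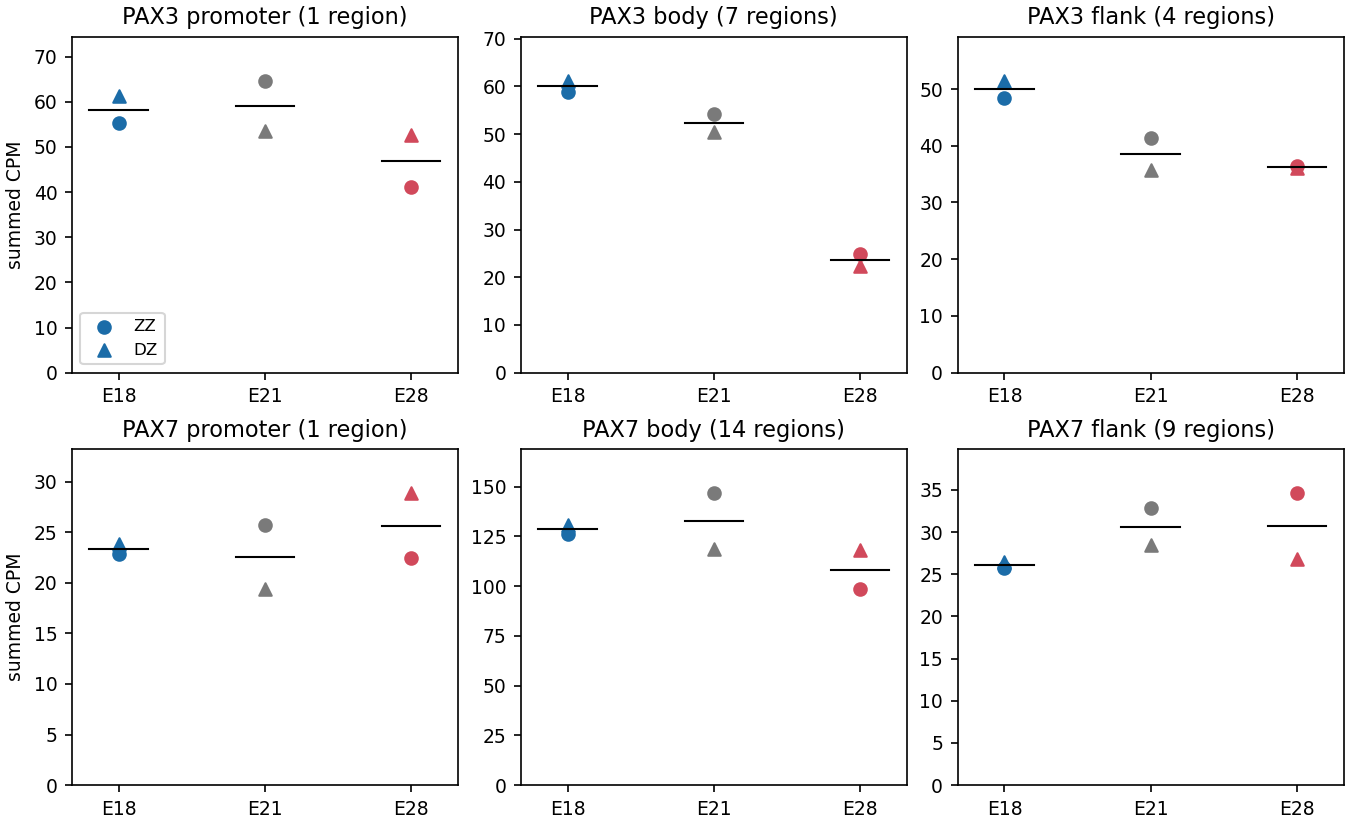
Summed CPM of the promoter, body and flanking regions with a peak in all 6 libraries, PAX3 above and PAX7 below. Circles are ZZ, triangles DZ and lines the mean of the 2 libraries of a stage. The PAX3 body sum stood at 58.8 and 61.2 CPM at E18 and at 24.9 and 22.3 at E28.

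No member passed the test between the breeds. Of the 36 members, edgeR and DESeq2 called 0 between DZ and ZZ, and 0% of all regions passed in edgeR. At an unadjusted p under 0.05 there were 0 PAX3 and 2 PAX7 regions, PAX7-8 (-0.73, p 0.0259) and PAX7-43 (-0.81, p 0.0376), both lower in DZ in the model fitted across all regions. The share of all regions under that unadjusted p was not computed, so no breed difference is read from either. Within a stage the median size of the log2 ratio of DZ to ZZ was 0.11 to 0.27 over the PAX3 regions and 0.17 to 0.41 over the PAX7 regions with a count in both libraries.

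Promoter sums of other genes of the network were read in the same fit. Of 29 genes listed as partners, upstream regulators or targets of PAX3 and PAX7, 27 had a promoter region in all libraries. Between E18 and E28, 2 rose and 3 fell, 5 of 27 where 48% of all promoter sums passed, with a median of -0.04. Without E28 ZZ 12 passed, without E28 DZ 9, and without E18 DZ 3. MYOG, the factor of terminal muscle differentiation, rose from 7.16 and 6.25 CPM to 16.8 and 23.3 (1.40 ± 0.21, adjusted p 0.000618). MEOX1, a somite homeobox factor, rose from 23.5 and 21.5 to 46.2 and 53.6 (0.98, adjusted p 0.000194). TCF21, a bHLH factor of mesenchyme that is related to MSC, fell from 24.5 and 24.6 to 7.04 and 7.20 (-1.95, adjusted p 2.4e-05). FGFR4, a receptor of muscle progenitors, fell by 0.74 (adjusted p 0.00222), and MET, the receptor of migrating progenitors, by 0.36 (adjusted p 0.0435). The call of MET was lost with DESeq2, with the other barcode limits and in 5 of the 6 fits that left out a library (all but that without E28 ZZ), with changes from -0.45 to -0.27, and that of FGFR4 without E18 DZ. Neither passed per covered base (-0.21 and -0.17). MYF5 and MYOD1, the factors of muscle determination, had changes of 0.19 and -0.00 and did not pass, and the sign of MYOD1 turned under several settings.

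In the PAX family 7 of 9 genes had a promoter region in all libraries, 4 of them fell and 0 rose, beside the 48% of all promoter sums that passed in either direction. PAX2 and PAX6, used in neural and sensory tissue, went from 83.4 and 75.0 CPM to 39.0 and 45.1 (-1.07, adjusted p 0.000191) and from 88.6 and 104 to 46.0 and 72.2 (-0.87, adjusted p 0.0047). Per covered base the change of PAX2 was -0.11 and did not pass and that of PAX6 was -0.37, which passed, and PAX6 lost its call with DESeq2. Leaving out 1 library, PAX6 ran from -1.33 (without E28 DZ) to -0.49 (without E28 ZZ). PAX5, of B cells and the midbrain, fell by 0.45 (adjusted p 0.00961), and per covered base it was at 0.38. It lost its call without E18 ZZ and ran from -0.68 (without E28 DZ) to -0.24 (without E28 ZZ), and PAX3 fell as given above. PAX1 and PAX9, of the sclerotome, had changes of 0.21 and -0.27 and did not pass, and PAX7 did not pass either. Per covered base PAX9 was at 0.03.

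Barcodes were clustered on 35999 regions of the odd-numbered autosomes without chromosome 15, so that neither locus took part. Of 18 clusters, 11 were named from marker genes. The unnamed clusters held 20246 of the 58809 barcodes, or 35.2% of E28 ZZ and 51.2% of E28 DZ. In the earlier libraries their share lay between 24.0% and 36.4%. Few markers passed for fibroblast or mesenchyme-like cells (4 of 12) and for sclerotome or cartilage-like clusters 3 and 9 (4 and 3 of 11). E28 ZZ and E28 DZ held 422 and 339 neural progenitor-like barcodes, and 168 and 203 neural crest or glia-like ones. Each name stands for cells with open markers, called "-like". Clusters 4 and 13 were myogenic-like (12 and 14 of the 14 measured markers passed). Cluster 13 held 14.6% and 12.0% of these cells at E18 and 31.9% and 40.6% at E28, and cluster 4 the rest. Neural progenitor-like cells (9 of 12 markers, SOX1, SOX2 and PAX6 among them) made up 14.6% and 24.5% of kept barcodes at E18, 13.2% and 8.94% at E21 and, by E28, 4.48% and 3.59%, and myogenic-like cells 7.39% and 7.36%, 10.2% and 10.3%, and 14.3% and 22.2%. The fall of the neural progenitor-like share depended on the clustering: at the lower resolution of 0.5, where that name covered a larger group, it was 25.4% and 37.3% at E18 and 26.7% and 42.1% at E28, while the myogenic-like share was 7.36% and 7.21% and then 14.1% and 22.1%. No doublet caller was run beyond the upper limit on counts. The part of these shares in the values over all cells was not tested. Levels across cell classes are a description without a test.

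Summed over its 12 regions, PAX3 was most open in neural crest or glia-like cells (239 CPM ± 22.01, SD over 6 libraries), myogenic-like cells (227 ± 44.9) and neural progenitor-like cells (182 ± 72.4), whose values overlapped. It was lower in fibroblast or mesenchyme-like (148 ± 24.6), neuron-like (136 ± 19.4), sclerotome or cartilage-like (114 ± 52.4), epithelial-like (104 ± 27.8) and endothelial-like cells (84.1 ± 36.6). Blood-like cells, where the gene is not known to act, had 47.5 ± 14.5 over the 5 libraries with 50 or more of them and serve here as the background level. On average over libraries PAX7 was at 303 ± 24.2 in myogenic-like cells and at 240 ± 97.6 in neural progenitor-like cells, whose values overlapped, with 177 ± 26.2 in fibroblast or mesenchyme-like, 174 ± 40.3 in neuron-like and 172 ± 26.8 in neural crest or glia-like cells, 135 ± 21.7 in epithelial-like and 122 ± 24.9 in sclerotome or cartilage-like cells, and 68.0 ± 16.9 in blood-like and 67.9 ± 25.6 in endothelial-like cells. Between neural crest or glia-like and myogenic-like cells the 2 promoters differed in opposite directions, and the other classes are not compared here. PAX3-7 had 132.9 ± 31.7 CPM in neural crest or glia-like cells and 75.8 ± 5.74 in myogenic-like cells, and PAX7-13 had 15.995 ± 6.88 and 38.6 ± 8.50.

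Single regions were more uneven than the sums. PAX7-30 and PAX7-35 had 32.6 ± 17.7 and 23.2 ± 9.24 CPM in myogenic-like cells and at most 6.78 and 6.00 on average in any other named class. PAX3-18, PAX3-23 and PAX3-29 also stood highest in myogenic-like cells, at 20.7 ± 7.54, 18.3 ± 7.17 and 13.8 ± 11.0 CPM, with the next classes at 9.90, 9.77 and 6.89. PAX3-11 stood highest in neural progenitor-like cells (18.8 ± 14.3), followed by neural crest or glia-like cells (13.3 ± 10.4), with 5.05 ± 3.29 in myogenic-like cells. PAX7-19 had 31.4 ± 7.96 in neural crest or glia-like, 24.8 ± 17.4 in neural progenitor-like and 6.88 ± 1.45 in myogenic-like cells. PAX7-46 was as high in fibroblast or mesenchyme-like (11.05 ± 8.31) as in myogenic-like cells (11.07 ± 8.80).

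**Figure D4:**
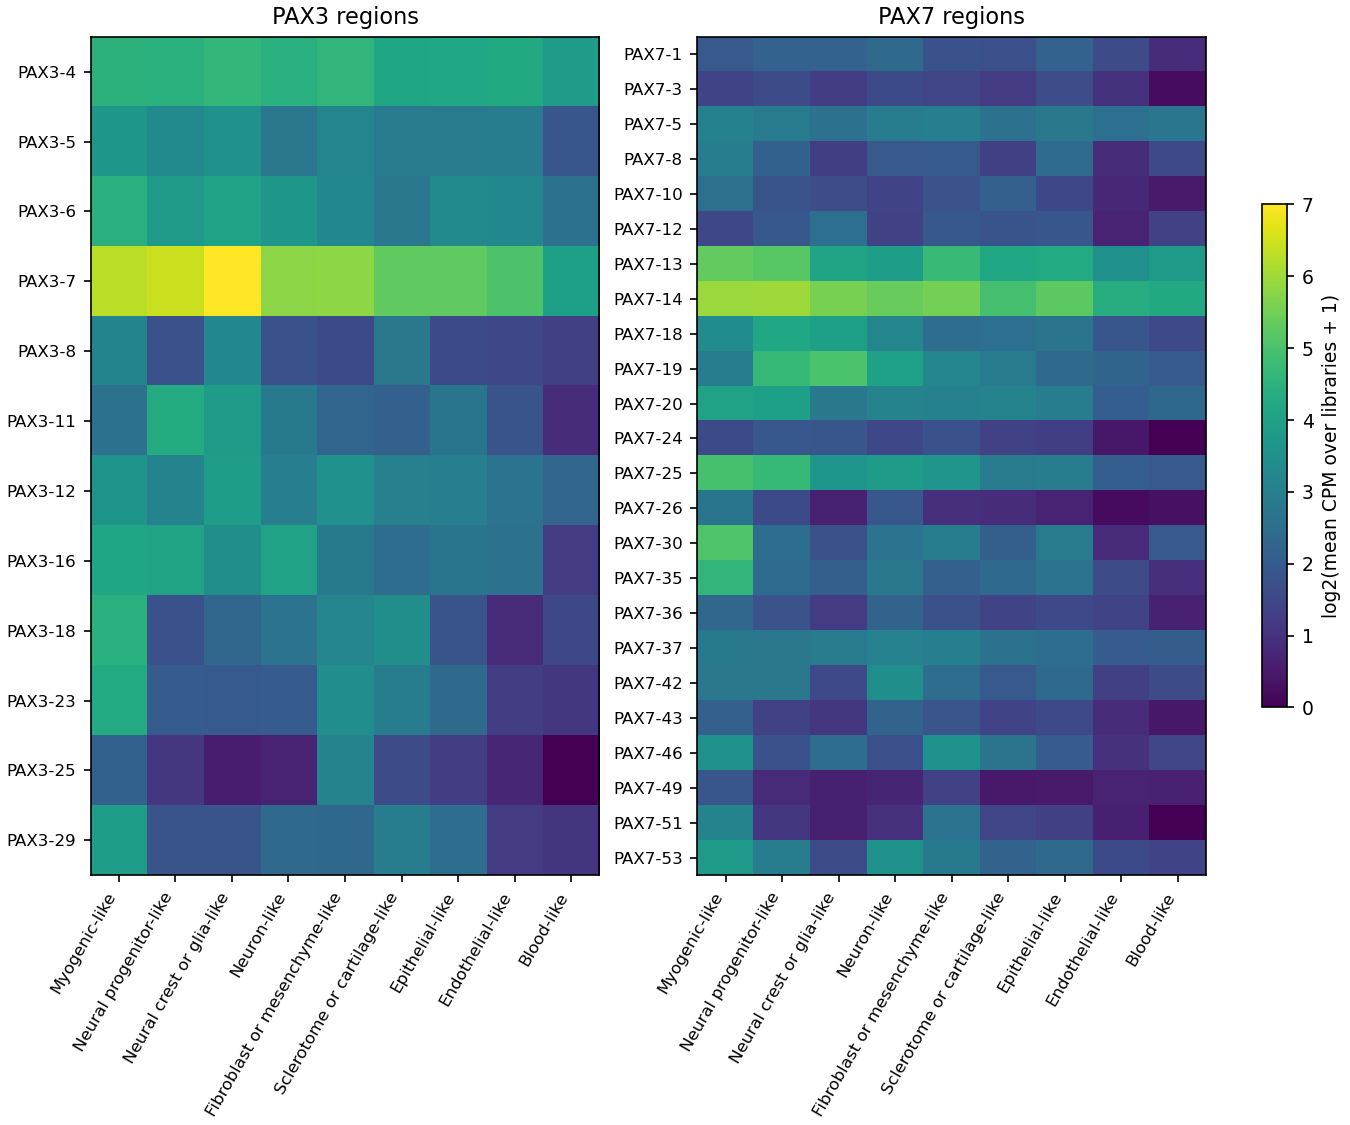
Mean accessibility over libraries, as log2(mean CPM + 1), of each PAX3 and PAX7 region in 9 named cell classes, from 0 (dark) to 7 (yellow). PAX7-30 and PAX7-35 stand out in the myogenic-like column (32.6 and 23.2 CPM), PAX7-19 in the neural crest or glia-like column (31.4 CPM), and the blood-like column is the darkest for most regions.

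By the correlation of log2(CPM + 1) over 107 sums of a cluster in a library, the promoters most like that of PAX7 among 16089 were MYF5 (Pearson r 0.720), MYH7 (0.635), LOC110256111 (0.629), TEAD3 (0.617) and LOC110261082 (0.602). Those most like PAX3 were CELF2 (0.767), PPP2R2B (0.679), PRDM12 (0.670), LOC106510404 (0.668) and TIAM2 (0.658). The 2 members correlated at 0.489 with each other, which placed PAX3 at rank 30 for PAX7 and PAX7 at rank 233 for PAX3. These points share libraries and clusters and are not independent.

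Because the classes differ in the regions they open and in their share at each stage, the stage comparison was repeated within a class, a choice made after the values over all cells had been seen. Within myogenic-like cells 36.1% of all regions passed between E18 and E28. Of the PAX3 regions 5 of 12 passed, all lower: PAX3-8, PAX3-11, PAX3-12, PAX3-16 and PAX3-29. Without E18 DZ there were 3, and without E28 ZZ 8. PAX3-29 had 27.9 and 24.9 CPM at E18, 9.30 and 15.9 at E21 and, by E28, 2.88 and 1.89, a fall of 3.43 ± 0.37 (adjusted p 0.000316) and of 2.78 per covered base (adjusted p 9.6e-08). PAX3-11, PAX3-16, PAX3-8 and PAX3-12 fell by 2.85, 1.83, 1.67 and 0.79. The call of PAX3-8 in counts did not hold in every fit that left out a library (-1.71 to -1.63). Per covered base PAX3-8 fell by 0.95 (adjusted p 0.0181), while PAX3-11, PAX3-16 and PAX3-12 had 0.62, 0.41 and 0.38 and did not pass. Over all cells the offset moved the median of all regions to 0.43. The shift within a class was not computed, so per-base values within classes cannot be set against it. The call of PAX3-12 (adjusted p 0.0447 in edgeR) was lost with RLE factors, with DESeq2, at the lower clustering resolution, in cluster 4 alone and without any 1 of the 6 libraries. The PAX3 promoter stood at 70.3 and 72.6 CPM at E18 and 69.7 and 83.6 at E28 (0.16 ± 0.12, adjusted p 0.339), and per covered base it was higher by 0.98 (adjusted p 1.1e-06).

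At PAX7, 10 of 24 regions passed within myogenic-like cells, 5 in each direction, and 5 in all without E18 DZ. PAX7-30 had 10.0 and 11.9 CPM at E18, 32.4 and 48.3 at E21 and, by E28, 45.2 and 47.5, a rise of 2.15 ± 0.18 (adjusted p 0.000123) and of 1.72 per covered base. PAX7-35 rose from 10.9 and 12.2 through 25.4 and 29.9 to 29.7 and 31.2 CPM, by 1.46 ± 0.18 (adjusted p 0.000558). In both, the E21 values lay already well above E18. The promoter PAX7-13 rose from 29.6 and 29.4 CPM through 40.4 and 36.7 to 44.2 and 51.2 (0.76 ± 0.15, adjusted p 0.00481) and by 1.69 per covered base, and PAX7-25 and PAX7-26 of intron 4 rose by 1.31 and 1.19.

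The falling PAX7 regions of myogenic-like cells were PAX7-46, with 21.1 and 22.2 CPM at E18, 10.5 and 7.59 at E21 and, by E28, 1.31 and 3.69 (-3.05 ± 0.45, adjusted p 0.0013), PAX7-20, with 36.1 and 37.5, 8.03 and 8.20, and 0.00 and 1.52 (-5.45 ± 0.68), and the upstream regions PAX7-10 (-2.29), PAX7-12 (-1.81) and PAX7-8 (-1.71). The class pools clusters 4 and 13, whose shares shifted with stage. In cluster 4 alone, fitted after these values were seen, PAX7-30 rose by 2.40 and PAX7-35 by 1.52, PAX7-46 fell by 3.05 and PAX7-20 by 5.03, and PAX7-12 and PAX7-26 lost their calls. Both of these also lost them with DESeq2 and in 5 of the 6 fits that left out a library (all but that without E28 ZZ), where PAX7-12 ran from -2.42 to -1.21 and PAX7-26 from 0.95 to 1.45. PAX7-13 and PAX7-10 lost their calls without E18 DZ, and PAX7-8 without either E18 library and per covered base. For PAX7-20, with its 1 bp peak in E28 ZZ, the value without that library was -4.50, and per covered base it fell by 2.46.

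Within neural progenitor-like cells 36.4% of all regions passed. PAX3-7 had 80.1 and 81.9 CPM at E18, 131 and 142 at E21 and, by E28, 37.6 and 37.4, a fall of 1.35 ± 0.14 from E18 to E28 (adjusted p 9.4e-06) with the highest values at E21, and per covered base the fall was 0.52 (adjusted p 0.0143). PAX3-16 fell by 3.96 (1.69 per covered base), with 24.8 and 23.4 CPM at E18 and 10 counts at E28, all in the ZZ library. PAX3-11 had 30.7 and 29.7 CPM at E18 and 3 counts in all at E28. The ratio of E28 to E18 was 0.0185 (95% interval 0.0038 to 0.0543, counting error only and too narrow for paired counts). Per covered base PAX3-11 fell by 2.49 (adjusted p 0.00326). At PAX7, 7 of 24 regions fell and 1 rose (5 in all without E18 DZ), and without E28 DZ 5 PAX3 regions passed. PAX7-13 had 35.2 and 31.4 CPM at E18, 49.6 and 54.5 at E21 and, by E28, 21.9 and 18.1 (-0.97 ± 0.19, adjusted p 0.00151). PAX7-19 went from 25.1 and 26.8 through 37.3 and 49.2 to 5.56 and 5.16 (-2.50 ± 0.27), and PAX7-18, PAX7-14 and PAX7-25 fell by 1.92, 1.10 and 0.88. Per covered base PAX7-19 and PAX7-14 still fell (-2.32 and -0.83), while PAX7-18 (-0.55), PAX7-25 (-0.32) and PAX7-13 (-0.01) did not pass. PAX7-25 also lost its call without either E18 library. PAX7-36 and PAX7-20 also passed as lower, but PAX7-36 lost its call with DESeq2, per covered base and without E18 ZZ, E18 DZ, E21 ZZ or E28 ZZ, and PAX7-20 lost its call with DESeq2, was at 0.68 per covered base and ran from -11.07 without E28 DZ, which left 0 counts at E28 and so no bound, to -1.38 without E28 ZZ. PAX7-30 rose by 2.07 ± 0.57 (adjusted p 0.0112) from 2.35 and 1.18 to 7.19 and 10.3 CPM. Leaving out 1 library, PAX7-30 ran from 1.29 to 2.92 and its call did not hold in every fit. At the lower clustering resolution, where the name covered a larger group and the share of all regions was not computed, 6 PAX3 regions passed. PAX7-30 did not pass there (0.71).

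Within neural crest or glia-like cells, 11 PAX3 and 19 PAX7 regions had enough counts and 15.4% of all regions passed. PAX3-7 rose by 0.58 ± 0.13 (adjusted p 0.0119), a call lost without E18 DZ or without E28 DZ, while PAX3-11 and PAX3-16 fell in counts but not per covered base. PAX7-13 fell by 1.25 (adjusted p 0.0361) and PAX7-14 by 0.67 (adjusted p 0.0449), neither of which passed per covered base. PAX7-46 had 170 counts at E18 and 3 at E28 (ratio 0.0694, 95% interval 0.0142 to 0.206, too narrow for paired counts). It did not pass per covered base (-1.98, adjusted p 0.119). Leaving out 1 library, its call in counts did not hold in every fit (-5.0 to -3.21). PAX7-20 had 185 counts at E18 and 0 in both E28 libraries. In E28 ZZ its peak was 1 bp long and could hold almost no count. No bound on the fall is given, because counts mostly came in pairs and mean covered length went from 3074 bp at E18 to 367 bp at E28. Without E18 DZ 1 region of each gene passed, and without E18 ZZ 2 PAX7 regions. PAX3-16, PAX7-13 and PAX7-14 each lost their calls without E18 ZZ, E18 DZ or E28 ZZ.

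The difference between myogenic-like and neural progenitor-like cells in the change from E18 to E28 was then tested in a fit that compares the classes inside each library, where covered length is the same for both. Peaks were called per library and not per class, and an effect of peak calling on this difference was not tested. The difference passed for 14 of 36 members, 4 at PAX3 and 10 at PAX7, where 28.1% of all regions passed. With the classes of the lower resolution 19 passed, and with cluster 4 as the myogenic-like cells 11 did. The shares of all regions in those fits were not computed, so these counts are not read as results about the members. At the lower resolution the neural progenitor-like name covered 18309 barcodes against 6934, so the classes compared there are not the same. Both promoters were among the 14. The change at PAX3-7 was higher in myogenic-like cells by 1.49 ± 0.14 (adjusted p 1.8e-08) and at PAX7-13 by 1.69 ± 0.20 (adjusted p 6.8e-07). PAX7-25, PAX7-19, PAX7-18 and PAX7-14 had differences of 2.15, 2.57, 2.13 and 1.24 in the same direction. PAX3-29 had the opposite sign (-4.34 ± 0.58, adjusted p 3.2e-06), since it fell in myogenic-like cells and had 2.06 and 1.77 CPM at E18 and 4.25 and 4.30 at E28 in neural progenitor-like cells. Within neural progenitor-like cells its change of 0.91 ± 0.62 did not pass (adjusted p 0.275) and rested on 13 and 10 counts at E28. PAX7-20 (-3.22), PAX7-46 (-2.19) and PAX7-10 (-2.16) also had negative differences. PAX7-46 lost its call with cluster 4 alone, at the lower resolution (-0.73) and without E18 ZZ, E18 DZ or E28 ZZ (-0.77 without the last), and PAX7-10 lost its call without E18 ZZ, E18 DZ or E28 ZZ (-1.42 without the last). For PAX7-30 the difference was -0.01 and for PAX7-35 0.44 ± 0.39, so no difference between the classes was shown at either. No SE is given for PAX7-30, because an SE derived from an estimate near 0 is unreliable. Within neural progenitor-like cells its change had an SE of 0.57, so a difference between the classes is not excluded. PAX7-35 did not pass within neural progenitor-like cells (adjusted p 0.1329).

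**Figure D5:**
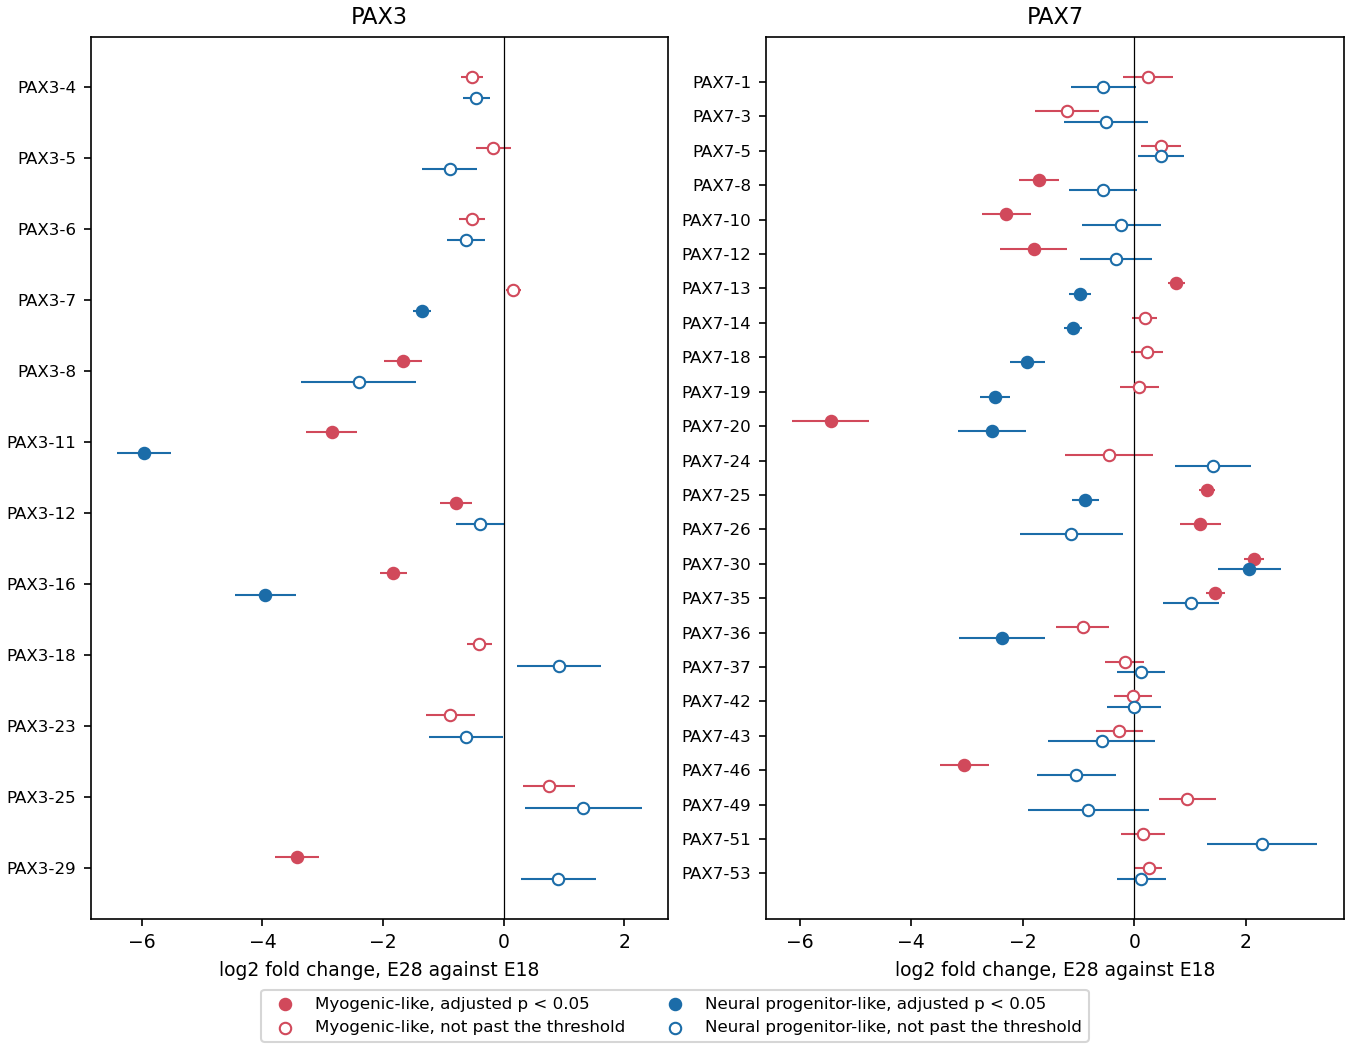
Log2 fold change of E28 against E18 within myogenic-like (red) and neural progenitor-like cells (blue), filled where the adjusted p was under 0.05, bars are standard errors. The promoter PAX7-13 lies at 0.76 in red and -0.97 in blue, and PAX3-29 at -3.43 in red. The red and blue points of PAX7-30 lie close together (2.15 ± 0.18 and 2.07 ± 0.57), with the wider bar in blue.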

How the data were processed

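The members and gene lists were chosen with earlier results of these data known. The authors aligned and called peaks per library with Cell Ranger ATAC (Seurat 3.1.1 and Signac 0.2.2 are also named in the submitters' notes) and deposited, per library, a peak list and a matrix of whole-number counts per peak and barcode. Gene positions came from the RefSeq annotation of the same Sscrofa11.1 assembly. Reads outside a library's own peaks were not analysed here.

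Barcodes with 2000 to 30000 counts were kept and no doublet caller was run. Peaks overlapping by at least 1 bp were merged, and the 78533 regions present in all 6 libraries were tested on summed counts with edgeR 4.0.16 (quasi-likelihood, TMM, stage and breed as terms, 2 residual degrees of freedom, Benjamini-Hochberg adjustment, threshold 0.05) in R 4.3.3. Class sums and the cell classes were fitted likewise. Unequal change within a gene was tested with diffSpliceDGE. The difference between classes had the library as a block. Cells were clustered by TF-IDF, singular value decomposition and Leiden (leidenalg 0.10.2). Regions named are the highest, the called and the unevenly changed members, and others were chosen after their values were seen. Alternatives were DESeq2 1.42.0, other scalings and filters, covered length as an offset, and leaving out each library. Scripts were tested on simulated data.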

Additional observations from a re-analysis of the deposited data

Results flagged for a closer look

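The change from E18 to E28 differed between myogenic-like and neural progenitor-like cells, by a test of the difference itself, at 14 of the 36 regions tested. It was higher in myogenic-like cells at PAX3-7 (1.49), PAX3-11 (3.03), PAX3-16 (2.16), PAX7-13 (1.69), PAX7-14 (1.24), PAX7-18 (2.13), PAX7-19 (2.57), PAX7-25 (2.15) and PAX7-26 (2.33), all on the log2 scale. It was lower at PAX3-29 (-4.34), PAX7-10 (-2.16), PAX7-20 (-3.22), PAX7-46 (-2.19) and PAX7-51 (-1.98). PAX7-26 rests on 6 counts at E28 in neural progenitor-like cells (ratio of E28 to E18 0.540, 95% interval 0.194 to 1.22) and PAX7-46 on 8 (0.599, 0.253 to 1.22). Both intervals are for counting error only and too narrow for paired counts. Leaving out 1 library moved PAX3-16 from 1.39 (without E28 DZ) to 9.60 (without E28 ZZ), PAX7-26 from 1.46 to 9.14 without the same libraries (in neural progenitor-like cells E28 DZ held 0 counts of either, so the higher values are no bound), PAX7-46 from -3.39 (without E28 DZ) to -0.77 (without E28 ZZ), PAX7-10 from -2.52 to -1.42 likewise and PAX7-51 from -2.76 (without E18 DZ) to -1.48 (without E18 ZZ). The calls of PAX7-10, PAX7-26 and PAX7-46 were lost in 3 of the 6 such fits and that of PAX7-51 in 2. At the lower clustering resolution PAX7-46 (-0.73) and PAX7-51 (-0.81) did not pass, and with cluster 4 alone PAX7-26 (2.15), PAX7-46 (-2.19) and PAX7-51 (-1.63) did not.

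In 3 of 29 items checked the ZZ and DZ libraries moved in opposite directions from E18 to E28. The PAX7 promoter sum, and with it its only region PAX7-13, changed by -0.394 CPM in ZZ and 5.08 CPM in DZ, and PAX7-14 by -11.7 and 0.842 CPM. With 1 library per stage and breed these differences were not tested.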

How the results depend on the processing

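Counts exist only inside peaks called per library, and covered length falls with stage, so lower accessibility and a shorter called peak cannot be told apart, with or without covered length as an offset. With the offset, 14 PAX7 regions passed between E28 and E18, and 7 and 10 members between E21 and E18 and between E28 and E21, 11 PAX3 and 18 PAX7 regions changed unlike their locus, and 9 partner promoters passed. Of all regions 45.8% passed as higher and 6.39% as lower between E28 and E18 with the offset. Shares for the other counts with the offset were not computed, so they are not read as results about the members. The offset also moved the median over all regions to 0.43, above several of the values below. Signs turned at PAX3-6 (0.22), PAX3-7 (0.45), PAX3-12 (0.31), PAX7-8 (0.34), PAX7-14 (0.01), PAX7-18 (0.36, and 0.34 against E21) and PAX3-11 against E21 (0.27), at MYOD1 (0.14), PAX5 (0.38) and PAX9 (0.03), and in the sums of the PAX3 promoter (0.33) and body (0.08) and the PAX7 promoter (0.90) and body (0.34), while the PAX3 flank was at -0.16 and no longer passed and the PAX7 flank at 0.65. Within myogenic-like cells PAX3-11, PAX3-12 and PAX3-16 stood at 0.62, 0.38 and 0.41. Within neural progenitor-like cells 5 PAX7 regions passed and PAX7-20 stood at 0.68. Within neural crest or glia-like cells 1 PAX3 and 2 PAX7 regions passed, with PAX3-11 at 0.13 and PAX3-16 at 0.40.

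DESeq2 called 2 members between E21 and E18 and 2 PAX7 regions in neural crest or glia-like cells, and MYOD1 was at 0.01 with DESeq2 and with RLE factors, 0.00 without the breed term and 0.07 with barcode limits of 4000 and 60000. Peaks open in 1% of barcodes left 3 PAX3 regions, 0 members between E21 and E18, 1 uneven PAX3 region and a PAX7 body sum of 0.05. Testing all merged regions left 0 members in each later comparison (E21 against E18 and E28 against E21). The PAX7 promoter sum was 0.01 both with barcodes counted once and with the other barcode limits, and the PAX7 flank within 20 kb was -0.16. At the lower clustering resolution PAX7 in epithelial-like cells was at 160 CPM. The cause of these moves was not tested, and the share of all regions passing was not computed for these settings. Counting cells of one class alone, a setting chosen after seeing the data, gave 10 PAX7 regions in myogenic-like cells and 3 PAX3 regions each in neural progenitor-like and neural crest or glia-like cells. The classes of the lower resolution, also chosen after seeing the data, gave 6 PAX3 regions in neural progenitor-like cells. The share of all regions was not computed there either.

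Leaving out each library in turn gave 3 to 6 PAX3 and 1 to 8 PAX7 regions between E28 and E18, 0 to 5 members between E21 and E18, 0 to 7 between E28 and E21, and 1 to 7 uneven PAX7 regions (7 without E28 ZZ). The share of all regions or promoters passing in these fits was not computed, so the counts are not read as results about the members. PAX7-13 ran from -0.22 to 0.38, PAX7-14 from -0.66 to 0.14, MYOD1 from -0.14 to 0.13, MYF5 from -0.13 to 0.48 and PAX1 from -0.08 to 0.49. The sums ran from -0.74 to -0.24 (PAX3 promoter), -0.35 to 0.27 (PAX7 promoter), -0.45 to -0.04 (PAX7 body) and -0.01 to 0.25 (PAX7 flank), and 3 to 12 partner promoters passed. Within myogenic-like cells 3 to 8 PAX3 and 5 to 11 PAX7 regions passed, within neural progenitor-like cells 3 to 5 and 5 to 9, and within neural crest or glia-like cells 1 to 3 and 1 to 4. No paired analysis by replicate was possible because the labels give no replicate numbers to use as a block. Breed was a term of the stage fits, and the classes were compared inside libraries. The difference at PAX7-20 between myogenic-like and neural progenitor-like cells could not be estimated without E28 DZ.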
